A study of Homo sapiens with 13 samples.

Results

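Accessibility was examined at the 7 genes for cyclin-dependent kinase (CDK) inhibitors, CDKN1A, CDKN1B, CDKN1C, CDKN2A, CDKN2B, CDKN2C and CDKN2D, in G1 and in M-phase of T98G cells, an established human glioblastoma line. Peaks that overlapped a gene body extended by 25 kb on each side were taken, which gave 29 of the 129347 peaks of the table. They comprised 5 peaks at CDKN1A, 13 at CDKN1B, 4 at CDKN1C, 2 at CDKN2A, 3 at CDKN2B, 0 at CDKN2C and 4 at CDKN2D, and both CDKN2A peaks also lay in the CDKN2B window. Open chromatin was measured by ATAC-seq, in which the Tn5 transposase cuts accessible DNA and inserts sequencing adapters, with 3 libraries from each phase. G1 cells came from a culture without serum for 72 h. M-phase cells were kept without serum for 48 h, given serum again for 36 h together with nocodazole, which depolymerizes microtubules and holds cells in mitosis, and collected by shaking off the rounded cells. No genotype differed between the phases, and all libraries came from the same line. Serum and the drug changed together with the phase, and the G1 libraries were run on a HiSeq whereas each M-phase replicate had a HiSeq and a NextSeq run, so phase, serum, drug and platform cannot be told apart. The labels do not say whether replicates were separate cultures, so the tests measure only the spread between these libraries.

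CDK inhibitors bind cyclin-dependent kinases and slow or stop the passage from G1 into S phase. The CIP/KIP members, p21 (CDKN1A), p27 (CDKN1B) and p57 (CDKN1C), bind complexes of cyclins with CDKs. The INK4 members, p16 (CDKN2A), p15 (CDKN2B), p18 (CDKN2C) and p19 (CDKN2D), bind the monomeric kinases CDK4 and CDK6. CDKN2A has a further promoter upstream, for p14ARF, which is read in another frame and binds MDM2. CDKN2A and CDKN2B lie next to each other at 9p21, a region often deleted in glioblastoma.

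The sequences before 7 of the starts are shown because the peaks cover some of these promoters and not others. Each run holds the 150 bases upstream of the annotated 5′ untranslated region at the MANE Select start (MANE Plus Clinical for p14ARF) on the gene's strand of GRCh37, the assembly of hg19. Capitals mark matches to the motifs described here, which were the GC box of SP1 (GGGCGG), the NFY site (CCAAT), the E-box (CACGTG), an E2F site (TTTNNCGC), a FOXO site (GTAAACA) and an AP-1 site (TGANTCA), on either strand.
CDKN1A, chr6:36646337-36646486, plus strand, within a peak: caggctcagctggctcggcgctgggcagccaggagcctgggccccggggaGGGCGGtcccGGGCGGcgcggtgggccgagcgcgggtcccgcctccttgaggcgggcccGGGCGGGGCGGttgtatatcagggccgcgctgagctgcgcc
CDKN1B, chr12:12870152-12870301, plus strand, within a peak: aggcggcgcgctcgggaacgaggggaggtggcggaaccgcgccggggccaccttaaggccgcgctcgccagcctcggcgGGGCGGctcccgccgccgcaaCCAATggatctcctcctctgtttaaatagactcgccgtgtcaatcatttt
CDKN2A at p14ARF, chr9:21994411-21994560, minus strand, within a peak: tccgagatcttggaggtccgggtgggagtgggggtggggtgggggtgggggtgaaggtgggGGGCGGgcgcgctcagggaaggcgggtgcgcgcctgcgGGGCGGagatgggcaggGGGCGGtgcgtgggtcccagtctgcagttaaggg
CDKN2A at p16, chr9:21974866-21975015, minus strand, in no peak: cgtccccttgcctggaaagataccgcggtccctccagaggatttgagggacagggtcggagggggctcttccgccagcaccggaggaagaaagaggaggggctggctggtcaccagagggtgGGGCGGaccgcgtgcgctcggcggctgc
CDKN2B, chr9:22009305-22009454, minus strand, within a peak: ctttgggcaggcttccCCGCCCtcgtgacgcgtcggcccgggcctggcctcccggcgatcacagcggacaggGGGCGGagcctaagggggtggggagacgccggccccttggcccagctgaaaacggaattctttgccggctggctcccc
CDKN2C, chr1:51435767-51435916, plus strand, in no peak: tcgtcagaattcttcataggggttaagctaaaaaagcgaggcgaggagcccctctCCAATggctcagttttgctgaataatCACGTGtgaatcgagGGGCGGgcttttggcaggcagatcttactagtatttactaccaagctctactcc
CDKN2D, chr19:10679736-10679885, minus strand, within a peak: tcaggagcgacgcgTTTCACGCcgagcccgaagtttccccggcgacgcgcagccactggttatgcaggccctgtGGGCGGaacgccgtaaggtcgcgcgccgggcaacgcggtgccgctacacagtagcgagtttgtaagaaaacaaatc

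With the CDKN1C window, 8 windows of this kind were examined. All 150 bases lay in a peak for 6 of the 8, and none did at the p16 start of CDKN2A and at CDKN2C. A GC box was found in 8 of 8 windows, against 53.7% of the 150-base windows upstream of 18922 MANE Select starts. Unlike the members' windows, those were not moved off annotated untranslated or coding sequence, and they were not matched in base composition. In the CDKN1A window 4 GC boxes were counted, with the last pair overlapping each other. The NFY site was found in 3 windows (CDKN1B, CDKN1C and CDKN2C; 26.6% of all windows), the E-box in the CDKN2C window (5.80%) and the E2F site in the CDKN2D window (4.66%). The FOXO site and the AP-1 site were in none of the 8, and were held by 1.16% and 2.84% of all windows.

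Each value is the number of reads in a peak after the authors' scaling to the library with the fewest reads, called a scaled count here. Their sum over all peaks ranged from 4.19e+06 to 6.00e+06 per library, with every M-phase library above every G1 library. The cell type was checked at the promoters of markers, of which 4 of 5 expected in mesenchymal and glial cells (VIM, CD44, FN1 and SOX9, but not NES) and 1 of 7 of other lineages (EPCAM) had a peak. Among these 7, PECAM1 had no entry under this name in the annotation, so it could not be checked. For the test, limma was fitted to log2(scaled count + 8), and p-values were adjusted by Benjamini-Hochberg over 73121 peaks left by a filter on low values. Changes are M-phase minus G1 on this log2 scale, and the added 8 shrinks changes of weak peaks. Of the 29 member peaks, 20 passed the filter, and the other 9 were 95 to 189 bp wide and did not exceed 18.9 in any library.

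Under the authors' scaling, the CDK inhibitor promoters that had a peak were more accessible in M-phase than in G1. All 7 peaks at a start of a member rose, by 0.62 to 1.18 on the log2 scale. Of all 20 tested peaks in the windows, 12 rose and 0 fell at an adjusted p under 0.05 (limma), with a median change of 0.71. Over all tested peaks 14.3% rose and 13.1% fell, and the median was 0.02. At an unadjusted p under 0.05, limma also counted 12 peaks higher and 0 lower. The M-phase values lay above all G1 values in 12 of the 20 (19.7% of all tested peaks), below all of them in 1 (18.6%) and overlapped in 7. Peaks at a start made up 11 of the 20, and these shares were not computed for such peaks alone.

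Promoters as a class moved the same way, so the members were also read against them. Of 15500 tested peaks that overlapped a transcript start, 43.2% rose and 5.94% fell, with a median change of 0.39. Of the 11 member peaks at a start, of a member or of a neighbouring gene, 10 rose and 0 fell, with a median of 0.98. Of the 9 tested member peaks at no start, 2 rose and 0 fell (limma, and 0 fell at an unadjusted p under 0.05), with a median of 0.24. The size of these changes, and at some peaks their call or direction, depended on the scaling. With a trended loess fit on abundance, 8 of the 20 rose and 0 fell, and of the 7 at a member's start 4 rose and 0 fell. The changes at a member's start that were not called there were 0.22 at CDKN1A, -0.22 at CDKN1C and -0.12 at p14ARF. Under that scaling 10.8% of all tested peaks rose and 13.4% fell, with a median of 0.03, and of the peaks at a start 21.3% rose and 17.1% fell, with a median of 0.06.

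**Figure D1:**
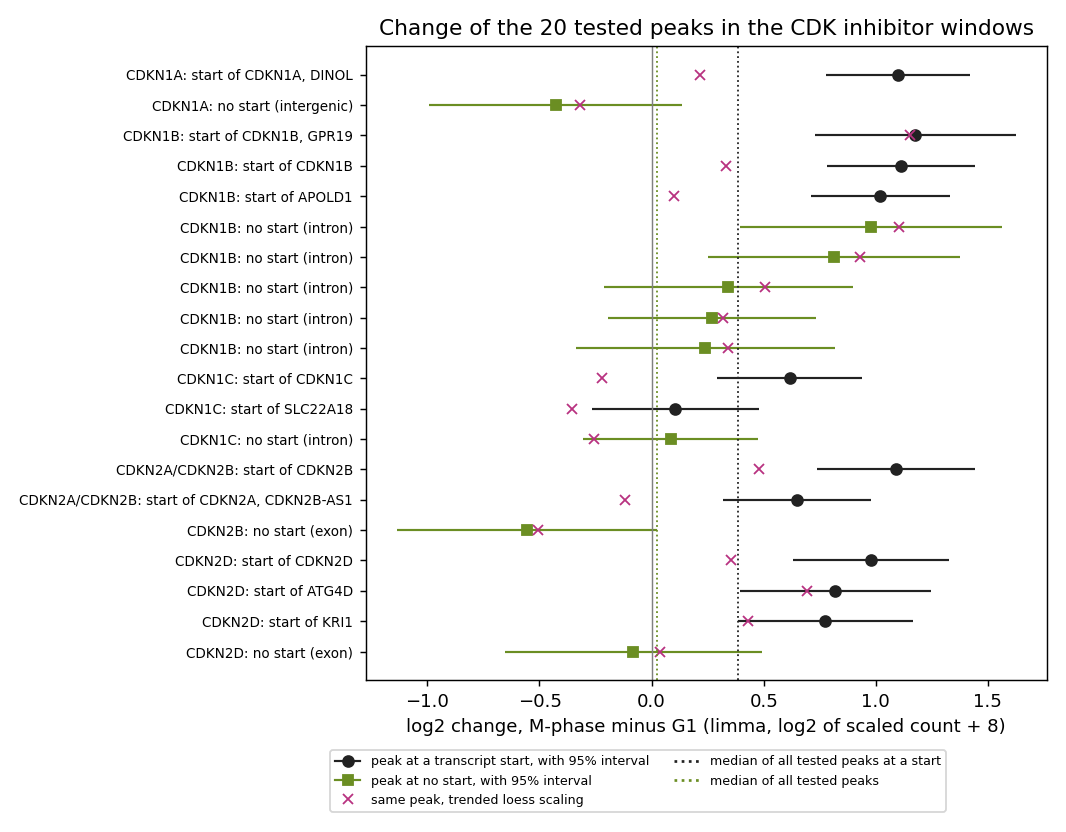
Log2 change from G1 to M-phase (x axis) of the 20 tested peaks, one row each, grouped by gene window, with 95% intervals from limma on 3 libraries per phase; crosses give the change under trended loess scaling and dotted lines the medians, under the deposited scaling, of all tested peaks (0.02) and of those at a transcript start (0.39). Of the 11 peaks at a start, 10 lie above 0 with their whole interval under the deposited scaling, while the crosses of CDKN1C, SLC22A18 and CDKN2A lie below 0.

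CDKN1A encodes p21, an inhibitor that is induced after DNA damage. Its promoter peak at chr6:36646258-36648623 also covers a start of DINOL, a long noncoding RNA read from the same region. The scaled counts were 293.3, 341.4 and 433 in G1 replicates 1 to 3 and 692.1, 792.8 and 806.5 in M-phase replicates 1 to 3. Every M-phase library was above every G1 library. The peak rose from 356 ± 71.0 to 764 ± 62.5 (SD, n = 3 each), a log2 change of 1.10 (standard error 0.16, limma adjusted p = 4.73e-08). This change was larger than that of 89.1% of all tested peaks at a start. With trended loess it was 0.22 and no longer called (adjusted p = 0.12, limma).

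The other CDKN1A peaks were weak. A peak of 256 bp at chr6:36634926-36635181, in intergenic sequence, had 28.8, 23.4 and 22 in G1 and 11.1, 19.8 and 18.8 in M-phase. The groups did not overlap, yet the fall of 0.43 on the log2 scale was not called (adjusted p = 0.283, limma), with a 95% interval from -0.99 to 0.14. The remaining 3 peaks, in intergenic sequence and in an intron of RAB44, were not tested.

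Peaks covered 4.86% of the CDKN1A window. Of 8 annotated CDKN1A transcripts, 5 started in the promoter peak and the 3 further upstream in none.

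CDKN1B encodes p27, the inhibitor that accumulates when cells are starved. Its main promoter peak at chr12:12869079-12871232 had 313.2, 228.9 and 274 in G1 and 595.7, 545.9 and 641.9 in M-phase. All M-phase values were above all G1 values. It rose from 272 ± 42.2 to 594 ± 48.0 (SD, n = 3 each), by 1.11 on the log2 scale (standard error 0.17, limma adjusted p = 7.65e-08), and the call held with trended loess (0.33, adjusted p = 0.0251).

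A further CDKN1B start lies beside that of GPR19, an orphan G protein-coupled receptor gene. The peak there, chr12:12849041-12850043, had 36.8, 43.0 and 56 in G1 and 115.3, 102.2 and 116.0 in M-phase. It was the weakest of the peaks at a member's start and had the largest change among them, 1.18 (standard error 0.23, limma adjusted p = 2.03e-05). Under trended loess it was 1.15. The changes of the 6 stronger ones were lower under that scaling, and negative at CDKN1C (-0.22) and p14ARF (-0.12). That fit removes a trend with abundance, so it shifts weak and strong peaks by different amounts. The 300 bp around the centre of the peak beside GPR19 held a FOXO site, an NFY site, a GC box and an E2F site. Of all peaks, 4.21%, 31.0%, 15.2% and 2.70% hold these. No other member peak held as many of the motifs, and the CDKN2B promoter peak held none in such a window.

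The strongest peak of the CDKN1B window belonged to a neighbour. At the start of APOLD1, which encodes a protein with an apolipoprotein L domain, the peak at chr12:12876641-12879028 had 457.3, 354.7 and 391 in G1 and 814.8, 860.3 and 779.5 in M-phase. The phases did not overlap, and the peak rose by 1.02 (standard error 0.16, limma adjusted p = 1.49e-07), but with trended loess by 0.10 (adjusted p = 0.512).

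Of the other 10 CDKN1B peaks, all in introns, 5 were tested and 2 rose. The intron peak at chr12:12824968-12825654, in GPR19, had 17.9, 4.7 and 25 in G1 and 35.4, 49.4 and 25.5 in M-phase. The lowest M-phase value was only just above the highest G1 value. It rose by 0.98 (standard error 0.29, limma adjusted p = 0.00717), and the call was lost without G1 replicate 2 (0.58, adjusted p = 0.163) or without M-phase replicate 2 (0.78, adjusted p = 0.0825). The peak at chr12:12889774-12890117, in an intron of APOLD1, had 9.9, 22.7 and 13 in G1 and 34.2, 27.2 and 34.2 in M-phase and rose by 0.81 (standard error 0.28, limma adjusted p = 0.0228). Its call was lost without G1 replicate 1 (0.65, adjusted p = 0.116), M-phase replicate 1 (0.77, adjusted p = 0.0823) or M-phase replicate 3 (0.77, adjusted p = 0.0693), and with equal totals in peaks (0.56, adjusted p = 0.131). The 3 tested peaks that were not called changed by 0.24 to 0.34.

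CDKN1C encodes p57, and the gene is imprinted and expressed from the maternal copy. Its promoter peak at chr11:2905226-2907475 had 392.7, 338.3 and 381 in G1 and 523.6, 551.3 and 644.8 in M-phase. The phases did not overlap. The peak rose from 371 ± 28.6 to 573 ± 63.5 (SD, n = 3 each), by 0.62 (standard error 0.16, limma adjusted p = 0.00194), the smallest change among the peaks at a member's start. The call depended on the scaling, with -0.22 under trended loess (adjusted p = 0.127) and 0.27 with equal totals in peaks (adjusted p = 0.0665).

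Other regions of the CDKN1C window were strong and did not differ beyond the spread of the libraries. The start of SLC22A18, an imprinted transporter gene, had a peak at chr11:2923040-2924149 with 163.0, 171.1 and 205 in G1 and 171.8, 212.6 and 197.3 in M-phase, a change of 0.11 with a 95% interval from -0.27 to 0.48 (limma adjusted p = 0.733). A peak in an intron of SLC22A18AS at chr11:2913417-2914668 had 153.1, 139.8 and 120 in G1 and 143.4, 133.1 and 162.2 in M-phase, a change of 0.08 with an interval from -0.31 to 0.48 (limma adjusted p = 0.803). A weak peak at KCNQ1DN was not tested, with means of 7.93 in G1 and 8.23 in M-phase.

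**Figure D2:**
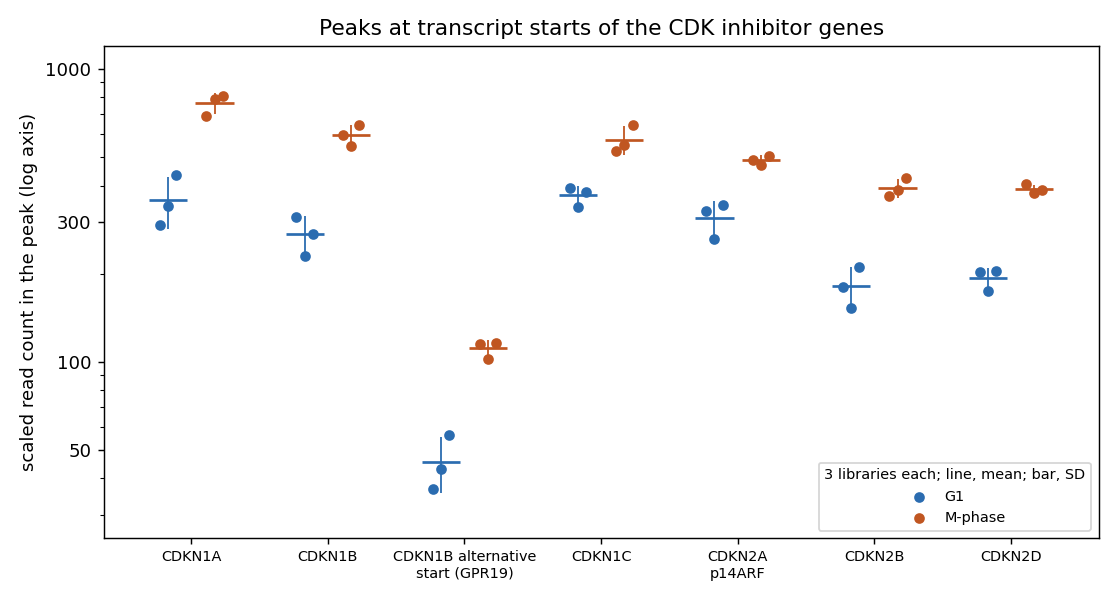
Scaled read count (y axis, log scale) in each library for the 7 peaks at a transcript start of a member, G1 in blue and M-phase in orange, 3 libraries each, with the mean (horizontal line) and SD (vertical bar). At each of the 7 promoters the M-phase libraries lie above the G1 libraries, from 102.2 to 116.0 at the alternative CDKN1B start up to 692.1 to 806.5 at CDKN1A. Of all tested peaks 19.7% separate this way, a share not computed for peaks at a start alone.

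CDKN2A was covered on its p14ARF side and not on its p16 side. Of the 5 annotated transcripts that begin on the p14ARF side all 5 started in a peak, and of the 9 that begin on the p16 side 0 did. The p14ARF peak at chr9:21993844-21996145 also covers a start of CDKN2B-AS1, known as ANRIL, a noncoding RNA on the other strand. It had 327.1, 262.5 and 342 in G1 and 490.6, 469.3 and 506.2 in M-phase, without overlap. It rose from 311 ± 42.3 to 489 ± 18.5 (SD, n = 3 each), by 0.65 (standard error 0.17, limma adjusted p = 0.00145). With trended loess the change was -0.12 (adjusted p = 0.481), so neither its direction nor its call held there.

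CDKN2B encodes p15, which TGF-beta signalling induces. Its promoter peak at chr9:22008451-22009704 lies 12305 bp from the p14ARF peak and had 179.9, 152.3 and 211 in G1 and 367.9, 385.7 and 423.9 in M-phase. Every M-phase value was above every G1 value. The peak rose from 181 ± 29.4 to 392 ± 28.6 (SD, n = 3 each), by 1.09 (standard error 0.18, limma adjusted p = 6.19e-07), and by 0.48 with trended loess (adjusted p = 0.00367). The third CDKN2B peak, in an exon of CDKN2B-AS1 at chr9:22030365-22030519, had 9.9, 21.9 and 15 in G1 and 3.3, 6.6 and 15.4 in M-phase. It was not called (-0.56, 95% interval -1.14 to 0.02, limma adjusted p = 0.155). It was called lower without M-phase replicate 3 (-0.85, adjusted p = 0.0386) and with equal totals in peaks (-0.77, adjusted p = 0.0375).

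CDKN2C encodes p18, and no peak of the table lay within 25 kb of it. None of its 3 annotated starts was in a peak, and the nearest peak was 154 kb from the closest of them. Of 20098 protein-coding genes on chromosomes 1 to 22 and X, 988 (4.92%) had no peak in a window of the same rule, and the median was 5 peaks. The stretch without a peak ran from 51272381 to 51617590 on chromosome 1, 345 kb, and also held the starts of FAF1, which encodes a Fas-associated factor, and of C1orf185. Of 128861 stretches between neighbouring peaks without an assembly gap, 400 (0.31%) were as long, and the median length was 9.61 kb.

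The starts in this stretch differed in base composition. In the 500 bp on each side of the FAF1 start the GC content was 64.0% and the observed over expected ratio of CpG was 0.99, and around the MANE Select start of CDKN2C they were 48.7% and 0.62. Starts were counted as CpG-rich at a GC content of at least 55% and a ratio of at least 0.65. Of 10901 CpG-rich MANE Select starts 89.7% had a peak within 500 bp, as did 39.7% of the others. A stretch as long that held at least 1 CpG-rich coding start occurred 56 times. The peaks at its ends were weak, with 2, 4.7 and 2 in G1 and 4.5, 4.9 and 8.2 in M-phase before it, and 7, 10.2 and 4 in G1 and 4.1, 3.3 and 2.4 in M-phase after it. A region without a peak has no value in the table, so its level was not measured here, and whether these cells carry its DNA was not tested.

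CDKN2D encodes p19, whose level follows the cell cycle in many cells. Its promoter peak at chr19:10679081-10680104 had 201.8, 175.0 and 204 in G1 and 403.7, 376.6 and 385.9 in M-phase. The phases were far apart compared with their spread. The peak rose from 194 ± 16.1 to 389 ± 13.8 (SD, n = 3 each), by 0.98 (standard error 0.18, limma adjusted p = 4.90e-06), and by 0.35 with trended loess (adjusted p = 0.0377). The neighbouring promoters of KRI1, a ribosome assembly factor, and ATG4D, a protease of autophagy, rose by 0.78 (limma adjusted p = 0.00123) and 0.82 (limma adjusted p = 0.00187). A peak in an exon of AP1M2 changed by -0.08, with a 95% interval from -0.65 to 0.49 (limma adjusted p = 0.874).

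**Figure D3:**
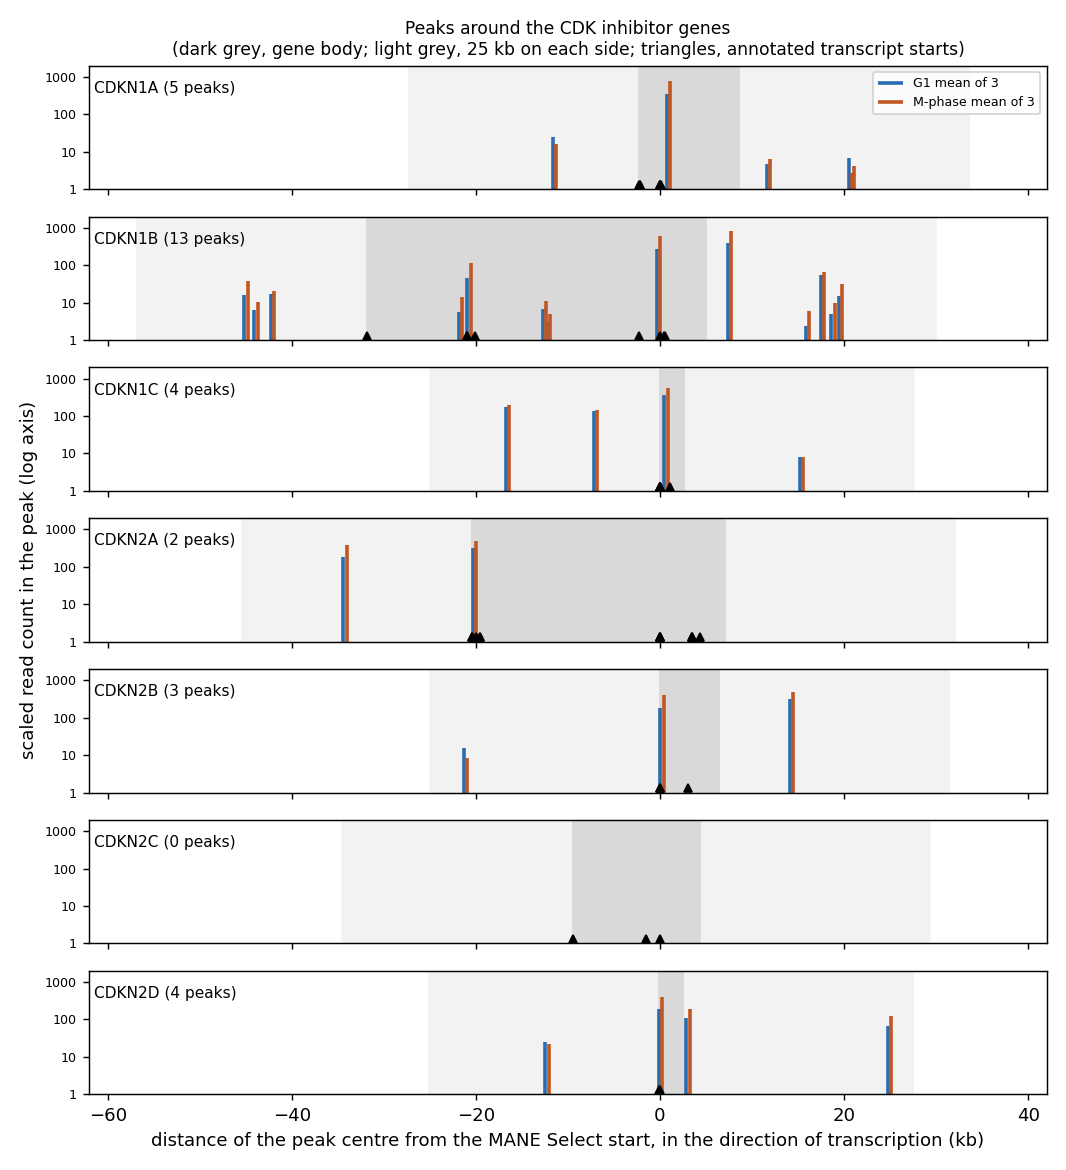
Mean scaled read count (y axis, log scale) of each of the peaks in the 7 gene windows in G1 (blue) and M-phase (orange), 3 libraries each, against the distance of the peak centre from the MANE Select start in kb along the direction of transcription; triangles mark annotated transcript starts, dark grey the gene body and light grey the 25 kb on each side. CDKN1B holds 13 peaks and CDKN2C 0, and the p16 starts of CDKN2A at distance 0 carry no peak while the p14ARF side about 20 kb upstream does.

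Levels were compared between genes per kb of peak width. They were not corrected for base composition or for DNA copy number, which was not tested. In M-phase the order of the scaled count per kb was CDKN2D (380 ± 13.4, SD, n = 3, as for the others), CDKN1A (323 ± 26.4), CDKN2B (313 ± 22.8), CDKN1B (276 ± 22.3), CDKN1C (255 ± 28.2), p14ARF (212 ± 8.05) and the alternative CDKN1B start (111 ± 7.75). The library ranges of CDKN1A and CDKN2B overlapped, as did those of CDKN2B with CDKN1B and of CDKN1B with CDKN1C, so these neighbours did not differ beyond their spread. In G1 the level was highest at CDKN2D (189 ± 15.8), followed by CDKN1C (165 ± 12.7), CDKN1A (150 ± 30.0), CDKN2B (144 ± 23.4), p14ARF (135 ± 18.4), CDKN1B (126 ± 19.6) and the alternative CDKN1B start (45.1 ± 9.77). The ranges of the neighbours from CDKN2D down to CDKN1B overlapped in G1. Averaged over the 6 libraries, the level per kb exceeded that of 93.0% of all peaks at a start for CDKN2D, 87.0% for CDKN1A, 71.7% for p14ARF and 27.6% for the alternative CDKN1B start.

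Summed over the peaks of a window, the scaled count rose 2.01-fold at CDKN1A, 2.04-fold at CDKN1B, 1.32-fold at CDKN1C, 1.79-fold at CDKN2A, 1.75-fold at CDKN2B and 1.84-fold at CDKN2D between the means of the phases. In the 2 windows at 9p21 the sums share both promoter peaks. At each of the 6 loci all M-phase sums were above all G1 sums. A two-sided exact permutation test gave p = 0.1 at every locus, the lowest that 3 against 3 libraries can reach. Summed over all peaks of the table, the phases also separated, with 4.19e+06 to 5.09e+06 in G1 and 5.48e+06 to 6.00e+06 in M-phase. The separation is therefore not particular to these loci, and the folds were not corrected for it.

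The region around CDKN2A and CDKN2B was then examined as a whole. Between 21 and 23 Mb of chromosome 9 the table holds 51 peaks, or 25.5 per Mb, against 19 per Mb from 19 to 21 Mb and 9 per Mb from 23 to 25 Mb. Over 1378 windows of 2 Mb across the genome the median was 79 peaks, over the 54 of chromosome 9 it was 39, and 36.6% of all windows had fewer than 51. Peaks covered 1.40% of the bases. Counts of peaks are not a measure of copy number, which was not tested.

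Within this region a stretch of 139 kb without a peak, chr9:21854841-21993843, held the p16 start and the 3′ part of MTAP, the methylthioadenosine phosphorylase gene. Stretches as long made up 1.84% of those in the genome, and 177 of them held at least 1 CpG-rich coding start. The surroundings of the p16 start were CpG-rich, with a GC content of 62.6% and a ratio of 0.78. On one side the stretch ended at a weak peak at chr9:21854693-21854840 with 8.9, 3.9 and 18 in G1 and 5.4, 4.5 and 3.8 in M-phase, and on the other at the p14ARF peak. The MTAP promoter itself had a peak, with 141.2, 131.3 and 234 in G1 and 182.1, 167.3 and 200.2 in M-phase. These overlapped, and the change was 0.15 (limma adjusted p = 0.618).

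Of the 51 peaks 37 were tested, 7 rose and 4 fell (18.9% and 10.8%, against 14.3% and 13.1% of all peaks), with a median change of 0.02. Apart from the promoters of p14ARF and CDKN2B, the 5 rises all lay before the p16 start, among 22 tested peaks, of which 2 fell. Under trended loess 8 peaks rose there and 1 rose beyond the CDKN2B promoter. This division of the region was not planned, and a difference between its sides was not tested. The following peaks of this region were chosen after their values were seen. The start of MIR31HG, the host gene of miR-31, had 117.3, 107.0 and 153 in G1 and 295.8, 307.0 and 334.9 in M-phase and rose by 1.27 (limma adjusted p = 4.69e-08). The start of KLHL9, an adaptor of a CUL3 ubiquitin ligase, had 56.7, 93.0 and 101 in G1 and 160.2, 187.1 and 176.6 in M-phase and rose by 1.03 (limma adjusted p = 5.07e-05). The largest rise was at no start, at chr9:21677796-21678189, from 9.9, 11.7 and 6 in G1 to 49.4, 49.4 and 71.7 in M-phase, by 1.91 (limma adjusted p = 3.56e-08). On the same side the peak at chr9:21096253-21096607 fell, from 16.9, 25 and 40 in G1 to 8.2, 5.4 and 3.8 in M-phase, with a change of -1.31 (limma adjusted p = 0.000219). At each of these 4 the phases did not overlap, which adds no support, since they were picked from the called peaks. Among all tested peaks, M-phase lay wholly above G1 in 19.7% and wholly below in 18.6%.

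Beyond the CDKN2B promoter 13 peaks were tested, of which 0 rose and 2 fell (limma), with a median change of -0.30. Over all tested peaks 14.3% rose and 13.1% fell, and among so few peaks 2 falls are close to that share. At an unadjusted p under 0.05, 1 of the 13 was higher and 2 were lower. With trended loess 1 rose and 3 fell, against 10.8% and 13.4% of all tested peaks. Of the 13 peaks, 5 lay along the body of ANRIL, and 0 rose and 0 fell there, by limma, at an unadjusted p under 0.05, and with trended loess. With equal totals in peaks 4 of the 5 fell. That scaling moved the median change of all tested peaks to -0.24, and TMM scaling moved it to -0.08. Over the whole region 6 peaks rose and 13 fell with equal totals, against 8.67% and 24.7% of all tested peaks.

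**Figure D4:**
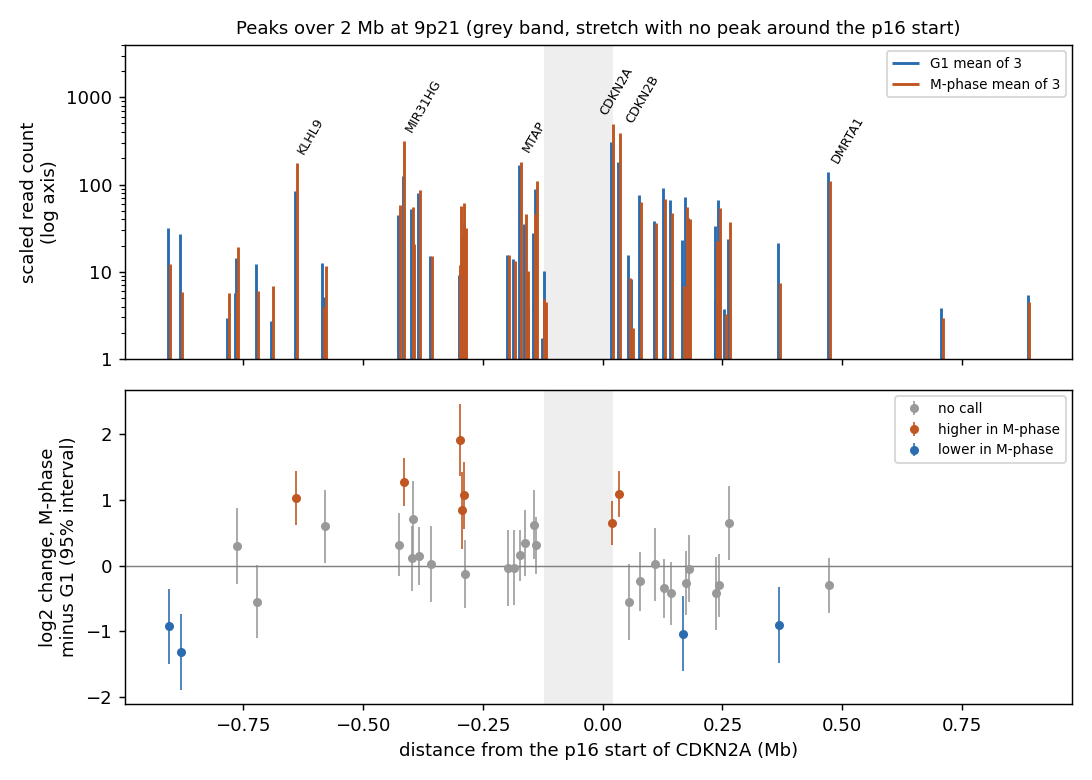
Upper panel, mean scaled read count (y axis, log scale) in G1 (blue) and M-phase (orange) of the 51 peaks over 2 Mb at 9p21 against the distance from the p16 start in Mb; lower panel, log2 change with its 95% interval of the 37 tested peaks. Apart from the promoters of CDKN2A and CDKN2B, the 5 peaks that rose lie to the left of the p16 start, where 2 others fell, the grey band (139 kb) holds no peak, and 26 peaks were not called. The division at the p16 start was not planned, and a difference between the sides was not tested.

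Genes that act with the CDK inhibitors were listed in 4 groups. For each gene the strongest peak at a start was taken, by mean scaled count without division by peak width. Of 53 genes 52 had such a peak, the exception being CCND2, which encodes a D-type cyclin. Of the 52, 39 rose and 0 fell (limma), with a median change of 0.75, against 43.2% and 5.94% of all peaks at a start and their median of 0.39. That comparison holds every tested peak at a start, not only the strongest of each gene, so the sets are unlike. At an unadjusted p under 0.05, 1 of the 52 was lower. The counts moved with the scaling, to 14 higher and 8 lower under trended loess, with a median of 0.15, where 21.3% of all peaks at a start rose and 17.1% fell with a median of 0.06.

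Among cyclins and CDKs 10 of 12 promoters rose (median 0.81). The strongest was CDK6, the INK4 target, with 1145.3, 1127.4 and 1210 in G1 and 2092.3, 2163.2 and 2123.9 in M-phase and a rise of 0.87 (limma adjusted p = 1.57e-07). The phases were wide apart, but under trended loess its change was -0.45 (adjusted p = 3.58e-07), a fall relative to peaks of similar abundance. Among RB and E2F genes, which act downstream of the kinases, 8 of 13 rose (median 0.59). The strongest was E2F3, with 703.9, 554.7 and 844 in G1 and 1158.4, 1287.2 and 1366.6 in M-phase and a rise of 0.87 (limma adjusted p = 2.13e-06), which turned to -0.25 under trended loess (adjusted p = 0.0131).

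Among the genes for inhibitor degradation 10 of 12 rose (median 0.89). The promoter of CKS1B, the cofactor of SKP2 in the degradation of p27, shared with SHC1, was the strongest of this group and had the largest rise of all 4, with 585.6, 445.3 and 500 in G1 and 1465.3, 1610.6 and 1556.6 in M-phase, by 1.59 (limma adjusted p = 4.19e-15). RBX1, the RING subunit of cullin ligases, had 263.5, 269.5 and 376 in G1 and 769.1, 809.7 and 891.6 in M-phase and rose by 1.43 (limma adjusted p = 1.27e-11). Neither overlapped between phases, and both calls held under trended loess (0.50 and 0.57).

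Among transcriptional regulators of the inhibitor genes 11 of 15 rose (median 0.79). MYC, a repressor of CDKN1A and CDKN2B, had the strongest promoter of this group, with 574.6, 449.2 and 561 in G1 and 1020, 1047 and 1228.9 in M-phase. It rose by 1.05 (limma adjusted p = 2.87e-08), but by 0.01 under trended loess (adjusted p = 0.925). Per kb of peak width, its scaled count averaged over all libraries (238) lay below those of FOXO3 (300), SMAD2 (283) and EZH2 (264).

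**Figure D5:**
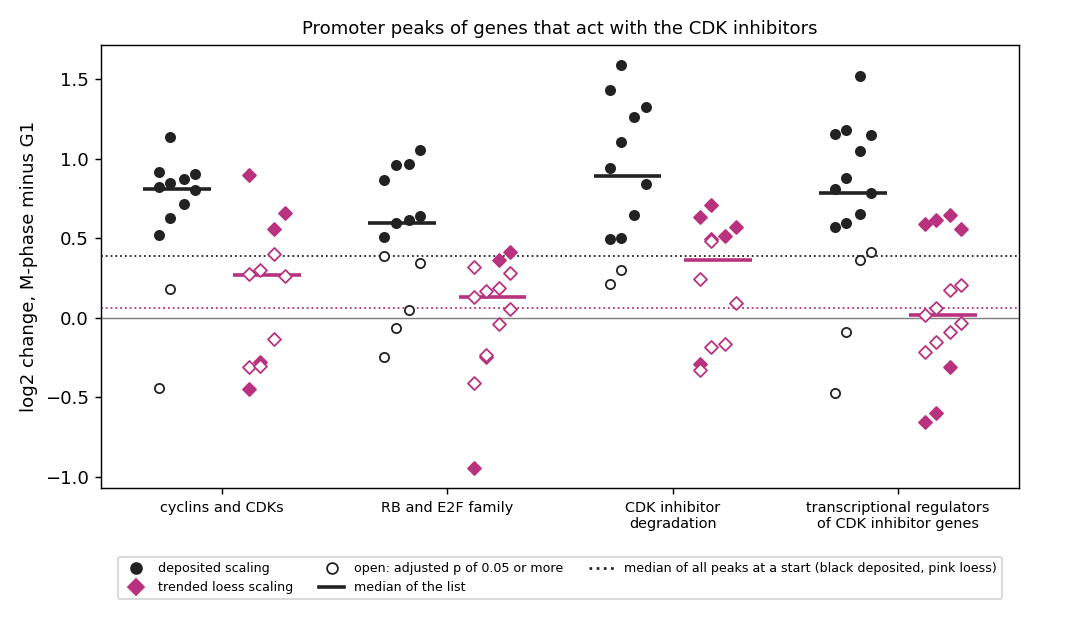
Log2 change from G1 to M-phase (y axis) of the 52 promoter peaks in the 4 gene groups, under the deposited scaling (black circles) and under trended loess (pink diamonds), filled where the adjusted p was under 0.05; thick lines give group medians and dotted lines the medians of all peaks at a start under the deposited scaling (black, 0.39) and under trended loess (pink, 0.06). Group medians fall from 0.59 to 0.89 under the deposited scaling to 0.01 to 0.36 under trended loess, where 3 of the 4 lie above the median of all peaks at a start.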

How the data were processed

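ATAC-seq of T98G cells from G1 and M-phase was used, with 3 libraries each; the chromatin fraction and input samples were not used. According to the methods of the study, the authors cut adapters with cutadapt, aligned to hg19 using QuasR with Rbowtie and dropped mitochondrial alignments with samtools. Broad peaks came from macs2, run per phase on the replicates together, and both peak sets were then merged. The deposited signal values are read counts in these peaks, scaled down by the authors to the smallest library and rounded to 0.1, and near-identical sequences share reads because mapping allowed several locations. Their deposited log2 columns hold the authors' own comparison and were not used. How the HiSeq and NextSeq runs of an M-phase replicate were joined, and tool versions, are not given in the sources used here.

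The members, gene lists and tests were chosen with earlier results of these data known. Peaks were kept if 3 or more libraries reached 10, rescaled to the median library, and the total was 15 or more. The values log2(scaled count + 8) of all 6 libraries were fitted by limma 3.58.1 (R 4.3.3, trended prior variance) without covariates. Windows, transcript starts and features came from GENCODE release 44 lifted to GRCh37, and sequences from GRCh37 with pysam 0.24.0. Of the member windows every peak at a member's start, the strongest peak and up to 4 rises and falls with an adjusted p under 0.05 were to be named; of the gene groups the 3 largest rises and falls and the strongest promoter of each group. Same-numbered libraries of the phases did not deviate together (r of 0.0059, -0.010 and 0.028 over peaks), so no pairing was used. The alternatives were TMM scaling, equal totals in peaks, a trended loess fit, a pseudocount of 1, other filters, the replicate block, each library left out, and windows of 0 and 50 kb. A gene and a sequence that this rule or the windows would have added are not reported here.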

Additional observations from a re-analysis of the deposited data

How the results depend on the processing

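The number of member peaks higher in M-phase, 12 in the reported setting, was 8 to 12 under the other scalings, pseudocount and filters, and 12 with the replicate block. The replicate block changed no call on a named peak. Taking the gene bodies alone (0 kb) left 8 tested peaks, of which 7 were higher. Member peaks lower in M-phase numbered 0, but 1 with equal totals in peaks and 2 with windows of 50 kb. Leaving out a library gave 11 to 12 higher and 0 to 1 lower (1 without M-phase replicate 3). In the gene groups, 39 promoters were higher and 0 lower. Lower promoters numbered 2 with TMM and 4 with equal totals. With trended loess 14 were higher and 8 lower. Leaving out a library gave 31 to 41 higher and 0 to 1 lower (1 without G1 replicate 2). At 9p21 the alternatives for calls were chosen after seeing the data. Lower peaks there numbered 4, 13 with equal totals and 1 with a minimum of 10 in every library, where fewer peaks were tested. Leaving out a library gave 6 to 10 higher and 3 to 5 lower.

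Of 37 single peaks, trended loess reversed 8. These were CDKN1C (-0.22), SLC22A18 (-0.36), the SLC22A18AS intron (-0.26), the AP1M2 exon (0.036), p14ARF (-0.12), MTAP (-0.28), CDK6 (-0.45) and E2F3 (-0.25). Equal totals reversed SLC22A18 (-0.23), the SLC22A18AS intron (-0.25), the APOLD1 intron peak at 12887338 (-0.043) and MTAP (-0.18). TMM reversed SLC22A18 (-0.026) and the SLC22A18AS intron (-0.047). With a library left out, the SLC22A18AS intron ranged from -0.005 to 0.16 and the AP1M2 exon from -0.40 to 0.16. The causes were not tested. Count models on whole reads, foreseen if reads could be recovered (edgeR, DESeq2), were not run, because the values of 3 libraries did not meet the criterion for recovered reads. With 3 libraries per phase, changes of weak peaks are measured with wide intervals, and regions without a peak have no value.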
